A study of Homo sapiens with 2 samples.

Results

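Long non-coding transcripts that carry small nucleolar RNAs (snoRNAs) in their introns stood mostly below their control level after PHF12 knockdown in H1299 cells, while the nuclear transcripts NEAT1 and MALAT1 stood above it. The genes were chosen by name in the deposited table: every SNHG gene with a plain number, together with GAS5, ZFAS1, EPB41L4A-AS1, NEAT1 and MALAT1. The rule found 33 of the 38637 genes listed, namely 31 snoRNA host genes and 2 nuclear long non-coding RNAs (lncRNAs) that host no snoRNA. Of these, 27 averaged at least 1 CPM over both libraries (CPM being counts in every 1000000, after scaling library sizes by the trimmed mean of M-values), 4 had fewer counts, and 2 had none.

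H1299 is an established line of human non-small cell lung carcinoma, and PHF12 is a PHD zinc finger subunit of a Sin3 histone deacetylase complex. The series holds 2 libraries of poly(A)-selected RNA. The control is labelled wild type with treatment none although its title ends in nc, and the other library is labelled PHF12 KD, also on a wild-type background, with the prefix si in its title. Neither the agent and its sequence nor what the control cells received was stated in the labels. Each group is 1 library of 1 line, so a difference describes these libraries and has no replicate check, and the intervals below are exact 95% intervals for the ratio of counts that cover counting error only. In bulk RNA, fewer cells expressing a transcript and less transcript per cell cannot be told apart.

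A snoRNA host gene is transcribed and spliced like an mRNA gene. The intron is trimmed to release the snoRNA, which guides chemical modification of ribosomal RNA (box C/D snoRNAs guide methylation, box H/ACA snoRNAs guide pseudouridylation) or, for scaRNAs, of spliceosomal RNA. The spliced exons that remain hold only short open reading frames in many host genes and are known substrates of nonsense-mediated decay, which acts when ribosomes translate them. Many host genes also begin transcription at a tract of pyrimidines, the 5′ terminal oligopyrimidine (TOP) element shared with ribosomal protein genes. NEAT1 and MALAT1 stay in the nucleus, where NEAT1 is the scaffold of paraspeckles and MALAT1 is found in nuclear speckles.

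The starts of 9 host genes are shown because they include the best-known TOP-type starts and the hosts with the lowest ratios between libraries. Each line gives 50 bases from RefSeq (GRCh38.p14), with 20 bases before the annotated start and 30 from it on, 5′ to 3′ on the strand of the gene. Capitals mark 1 run per gene, a C followed by at least 4 further pyrimidines, where that C lies within 10 bases of the start. A run within 1 base of the start was marked in preference to others, so a further run can stand in lower case, as in SNHG19.
SNHG5 (chr6:85678704-85678753, minus): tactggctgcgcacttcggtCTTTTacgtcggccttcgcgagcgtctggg
SNHG32 (chr6:31834896-31834945, plus): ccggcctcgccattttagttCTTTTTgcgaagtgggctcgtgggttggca
ZFAS1 (chr20:49278622-49278671, plus): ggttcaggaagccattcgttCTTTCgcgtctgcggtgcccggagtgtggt
SNHG19 (chr16:2155329-2155378, minus): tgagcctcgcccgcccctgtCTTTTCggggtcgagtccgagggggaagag
SNHG12 (chr1:28581844-28581893, minus): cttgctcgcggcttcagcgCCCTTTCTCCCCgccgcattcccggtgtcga
SNHG1 (chr11:62855856-62855905, minus): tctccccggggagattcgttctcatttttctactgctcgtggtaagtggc
SNHG17 (chr20:38435299-38435348, minus): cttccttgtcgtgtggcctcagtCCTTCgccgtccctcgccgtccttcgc
EPB41L4A-AS1 (chr5:112160506-112160555, plus): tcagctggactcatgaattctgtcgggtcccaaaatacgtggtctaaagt
GAS5 (chr1:173869016-173869065, minus): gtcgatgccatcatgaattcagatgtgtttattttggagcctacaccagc

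RefSeq promoter entries were matched for 27 of the host genes. The run of pyrimidines, searched on the strand of the gene only, stood within 10 bases of the start in 16 of them (59.3%), in 33.5% of all 35116 promoter entries and in 77.6% of 85 ribosomal protein promoters. Within 1 base of the start, a window chosen after the sequences were seen, it stood in 8 host promoters (29.6%), in 8.14% of all entries and in 60.0% of those of ribosomal protein genes. In SNHG4, SNHG5, SNHG19, SNHG32 and ZFAS1 the run begins at the first annotated base. The annotated start can be displaced from the one used in these cells: the RefSeq entry of GAS5 lies 163 bases from the start in the deposited table, that of SNHG4 349 bases, that of ZFAS1 464 bases, that of SNHG12 1110 bases and that of SNHG17 49 bases. A match is a property of the letters only.

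The deposited table lists 146 snoRNA and scaRNA genes inside the host spans on the same strand, 121 named SNORD (box C/D), 21 named SNORA (box H/ACA) and 4 named SCARNA. One of each snoRNA kind, and a paralog of the second, shows what the introns carry, from GENCODE release 29 transcripts (GRCh38). In SNORD27, from SNHG1, capitals mark the C box and the D box. In SNORA71C, from SNHG17, and its paralog SNORA71E, from SNHG11, they mark the ACA box at the 3′ end.
SNORD27 (chr11:62855012-62855083, minus): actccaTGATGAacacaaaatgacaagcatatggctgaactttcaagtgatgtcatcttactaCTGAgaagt
SNORA71C (chr20:38429670-38429803, minus): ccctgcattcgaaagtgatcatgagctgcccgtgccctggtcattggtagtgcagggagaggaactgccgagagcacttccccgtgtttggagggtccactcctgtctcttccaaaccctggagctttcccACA
SNORA71E (chr20:38448084-38448215, plus): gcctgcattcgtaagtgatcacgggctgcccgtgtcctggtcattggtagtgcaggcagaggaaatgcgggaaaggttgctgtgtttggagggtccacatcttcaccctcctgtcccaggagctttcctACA

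Depth was alike, at 24740581 counts for the control and 26084594 for the knockdown. PHF12 itself, on chromosome 17 from 28905250 to 28951518 (hg38), had 947 counts in the control against 756 after knockdown, 0.753 times the control level (95% counting interval 0.683 to 0.829). This is a modest reduction. Its log2 ratio of −0.41 lay between percentiles 5 and 6 (−0.4351 and −0.4016) of all genes with at least 1 CPM. All ratios are knockdown over control. Host genes together took 0.153% of control counts and 0.134% of knockdown counts.

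As a group, the 31 host genes summed to 37902 control counts and 34977 knockdown counts, 0.870 times the control level (0.858 to 0.883). Of the 25 host genes with at least 1 CPM, 20 had a ratio below 1 and 5 above. Their median log2 ratio was −0.12, beside −0.01 over all 14559 genes with at least 1 CPM. At least 1.2-fold lower were 6 of the 25, where 12.9% of all genes were, and at least 1.2-fold higher were 0, where 11.7% of all genes were. Without hosts that overlap a gene on the other strand by any number of bases (small RNA genes aside), 3 of 17 were at least 1.2-fold lower. For SNHG12, left out by this rule, the overlap was 8 bases. At least 1.5-fold lower was 1 host gene (2.29% of all genes) and at least 1.5-fold higher 0 (2.16% of all genes). The counting interval lay below no difference for 13 of the 25, where it did for 20.9% of all genes, and above it for 0, where it did for 20.3%. Thus the host genes lay to the lower side with small differences, and few of them passed a size of 1.5-fold.

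**Figure D1:**
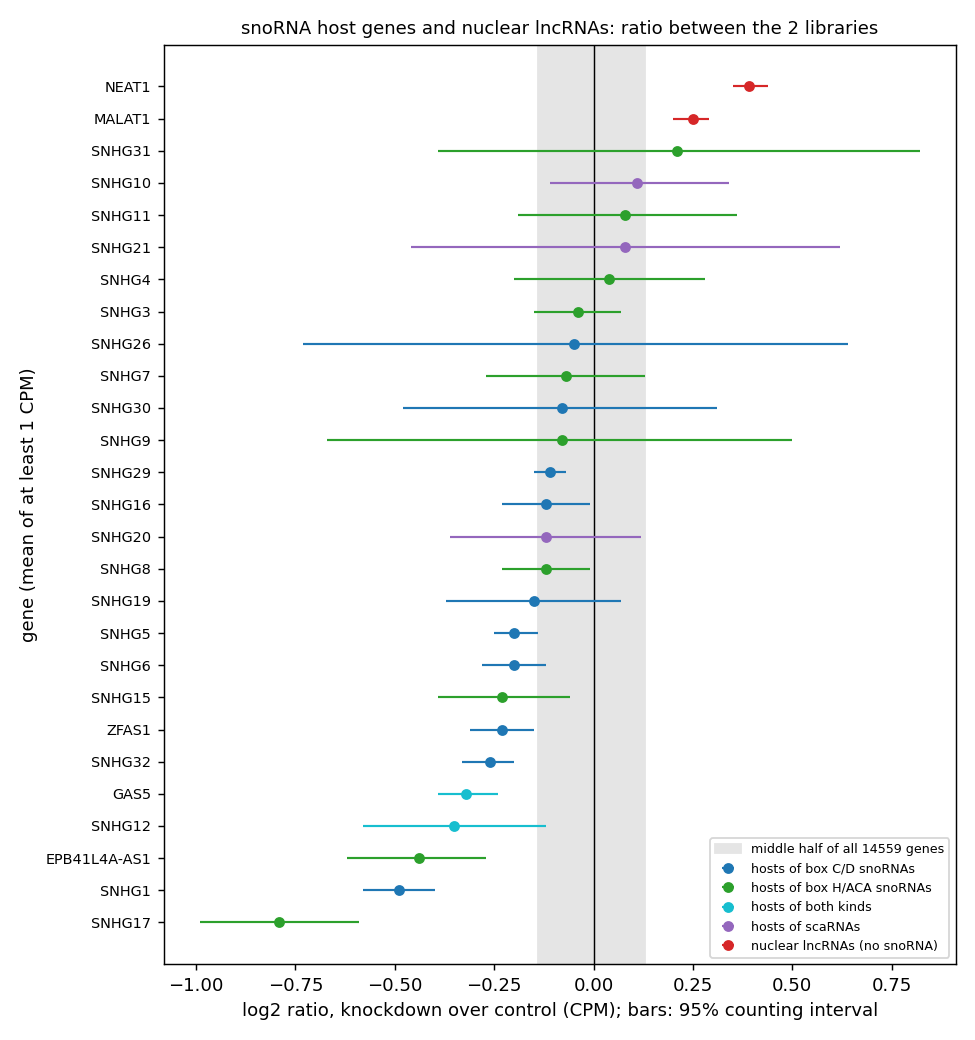
Log2 ratio of knockdown over control CPM (x axis) for the 27 members averaging at least 1 CPM (y axis), with 95% counting intervals as bars and colours for the kind of snoRNA in the gene; the grey band spans the quartiles of all 14559 genes, −0.14 to 0.13. NEAT1 and MALAT1 lie to the right of the band, and SNHG17, SNHG1 and EPB41L4A-AS1 lie farthest to the left.

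Other lncRNAs lay mostly to the other side of 0 in these libraries. The 1446 lncRNA genes outside the group with at least 1 CPM had a median log2 ratio of 0.08, with 856 above 0 and 590 below. Most of them were scarce, with a median level of 2.91 CPM against 18.1 CPM for the host genes. Among the 492 with at least 5 CPM the median was 0.07. A list of 40 protein-coding genes that carry snoRNAs in their introns had a median of −0.08, with 34 below 0 and 6 above. Only EIF4A2, a helicase of translation initiation, was at least 1.2-fold lower, where 12.9% of all genes were (5356 and 4522 counts, log2 ratio −0.33, interval −0.39 to −0.27). The interval lay below no difference for 31 of the 40, where it did for 20.9% of all genes, and above it for 5, where it did for 20.3%. These 40 are abundant (median level 606 CPM), so small differences exceed counting error. Of all 4869 genes with at least 50 CPM, 1340 had an interval below no difference and 1592 one above. HSPA8, a chaperone gene of this list, was on the other side at 0.23 (0.21 to 0.24).

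**Figure D2:**
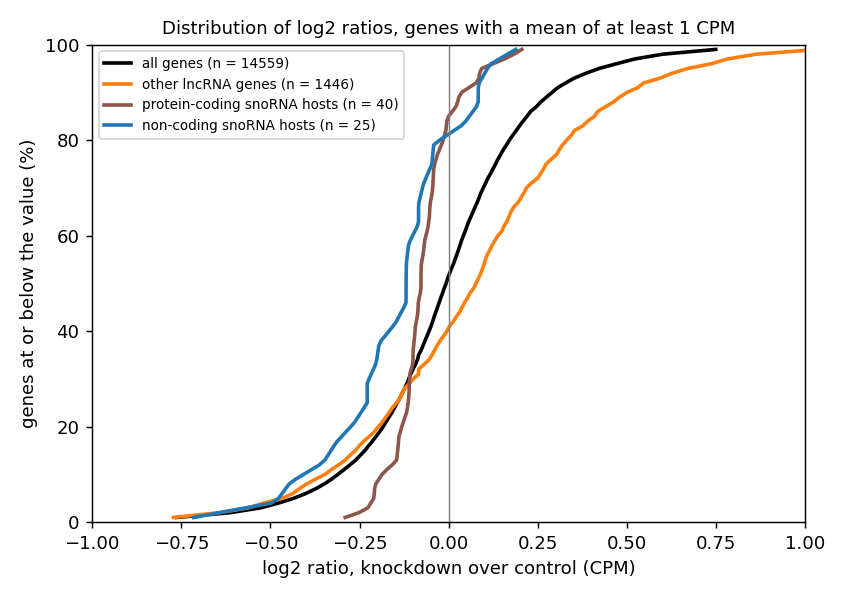
Percentage of genes (y axis) at or below each log2 ratio (x axis, knockdown over control) for all genes, lncRNA genes outside the group, the listed protein-coding snoRNA hosts and the non-coding snoRNA hosts, each with at least 1 CPM. The curve of the non-coding hosts crosses its midpoint at −0.12, to the left of the other lncRNAs at 0.08.

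SNHG17 was the lowest of all. This minus-strand gene (chr20:38420588-38435377, hg38) carries 4 SNORA71 copies. Its count was 565 in the control and 347 after knockdown, and its deposited TPM (transcripts in every 1000000, a unit that accounts for length) was 43.1 and 25.4. The ratio was 0.579 (0.505 to 0.663), and 0.886% of all genes with at least 1 CPM had a lower one. SNHG11, the neighbouring host 11.3 kb away on the opposite strand, carries SNORA60 and SNORA71E and had 211 and 237 counts, a ratio of 1.06 (0.876 to 1.28). The counting intervals of these neighbours do not overlap. Their snoRNAs SNORA71C and SNORA71E align with 80.0% identity over 135 columns, and any bearing of this on the host ratios was not tested.

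SNHG1, the host of 8 box C/D snoRNAs on chromosome 11 from 62851978 to 62855885, was next. Counts of 2308 and 1748 (TPM 170 and 124) gave a ratio of 0.714 (0.671 to 0.760). EPB41L4A-AS1, the host of SNORA13, had 616 and 480 counts and a ratio of 0.735 (0.651 to 0.829). It lies wholly within the span of the protein-coding gene EPB41L4A on the other strand, which stood at a log2 ratio of −0.15 (−0.36 to 0.05) on 409 and 390 counts. All 3 of these hosts were lower by more than the counting error, and the table lists no gene of greater length overlapping SNHG1 or SNHG17.

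GAS5 and SNHG12 carry both kinds of snoRNA. GAS5, known as a growth arrest transcript, holds 11 snoRNA genes on chromosome 1 from 173863899 to 173868882. Counts of 3082 and 2625 (TPM 408 and 333) gave a ratio of 0.803 (0.762 to 0.846). On the other strand, ZBTB37 shares 801 bases with GAS5 and GAS5-AS1 shares 43. SNHG12 had 349 and 290 counts and a ratio of 0.784 (0.668 to 0.918). SNHG3, 67.6 kb from SNHG12 on chromosome 1 and host of the abundant SNORA73A and SNORA73B, had 1337 and 1377 counts and a ratio of 0.971 (0.900 to 1.05). SNHG3 shares its span and strand with RCC1, so reads of their common part are of uncertain origin.

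The most abundant host transcripts per length were lower by a smaller amount. SNHG5, the host of SNORD50A and SNORD50B, had TPM values of 1241 and 1103, from 5596 and 5184 counts, and a ratio of 0.874 (0.841 to 0.907). SNHG32, in the major histocompatibility region of chromosome 6 and host of SNORD48 and SNORD52, had TPM values of 499 and 423, and its ratio from 3793 and 3348 counts was 0.832 (0.794 to 0.872). For SNHG6, the host of SNORD87, TPM was 432 and 382 and the ratio 0.868 (0.822 to 0.917), from 2732 and 2516 counts. These intervals lie wholly below no difference, and those of SNHG5 and SNHG6 overlap each other. SNHG6 shares all 3852 bases of its span with the other-strand gene MCMDC2, which had 178 and 173 counts.

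ZFAS1, on chromosome 20 from 49278178 to 49289260, carries 3 copies of the SNORD12 family. Counts of 2737 and 2477 (TPM 299 and 259) gave a ratio of 0.853 (0.808 to 0.901). SNHG29, the host of SNORD49A, SNORD49B and SNORD65, had the most counts of any host, 9107 and 8933, with TPM values of 407 and 383 and a ratio of 0.925 (0.898 to 0.952). SNHG29 was thus the least shifted of the hosts above 100 CPM, and 29072 bases of its span are shared with LRRC75A on the other strand. SNHG29 alone held 9107 of the 37902 control counts of the host genes.

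SNHG8, the host of SNORA24, had 1411 and 1377 counts and a ratio of 0.920 (0.854 to 0.992). For SNHG16, the host of SNORD1A, SNORD1B and SNORD1C, the counts were 1378 and 1345 and the ratio 0.920 (0.853 to 0.993). SNHG15, the host of SNORA9, had 642 and 581 counts and a ratio of 0.853 (0.761 to 0.956). The upper ends of the first 2 intervals lie close to 1, so these differences only just exceed counting error.

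For the other 12 host genes with at least 1 CPM the counting interval included no difference. SNHG4 (285 and 311 counts) and SNHG20 (299 and 292) share their span and strand with MATR3 and SEC14L1, which held many more counts. SNHG7 (423 and 427), SNHG10 (310 and 356) and SNHG19 (363 and 347) had ratios of 0.952, 1.08 and 0.901. SNHG30 had 112 counts in each library. SNHG9 (51 and 51), SNHG21 (57 and 64), SNHG26 (38 and 39) and SNHG31 (44 and 54) were scarce, and their intervals were wide, reaching from 0.763 to 1.76 for SNHG31. SNHG3 and SNHG11, described above, complete this group. A difference of the size seen in SNHG5 was not detectable at the depth of these scarce genes.

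Below 1 CPM stood SNHG22 (7 and 5 counts), SNHG25 (8 and 7), SNHG27 (21 and 26) and SNHG28 (20 and 21), and the table lists no snoRNA gene inside SNHG27 or SNHG28. SNHG14, the long imprinted transcript of the Prader-Willi region with 83 snoRNA genes, and SNHG18 were at 0 in both libraries. A count of 0 allows up to 3 counts, which is 0.122 CPM in the control and 0.115 CPM in the knockdown library. SNRPN and SNURF, which share the span and strand of SNHG14, were also at 0. The part of the shared spans in these zeros was not tested.

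**Figure D3:**
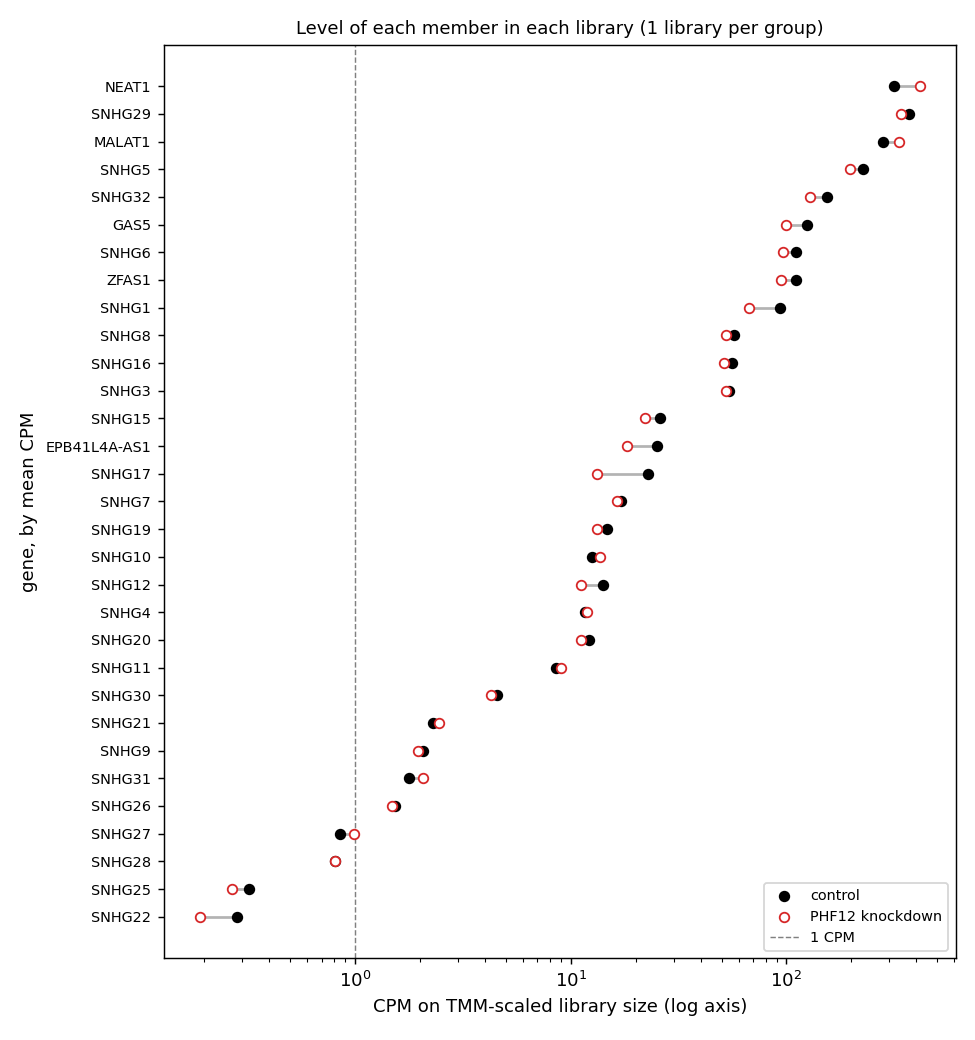
CPM on a log axis (x axis) of each member with at least 1 count (y axis, ordered by mean CPM) in the control library (filled) and the PHF12 knockdown library (open). The open point lies to the left of the filled one for each host above 50 CPM and to the right for NEAT1 and MALAT1.

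The ratio varied with level and snoRNA content. All 10 host genes with at least 50 CPM had a ratio below 1, with a median log2 ratio of −0.20, and the interval lay below no difference for 9 of them (SNHG3 was the exception). Of all 4869 genes with at least 50 CPM, 1340 had such an interval and the median was 0.01. The 15 hosts between 1 and 50 CPM had a median of −0.08, with 10 below 0 and 5 above. Over the 25 hosts, the log2 ratio and log10 mean CPM had a Pearson r of −0.40 and a Spearman rho of −0.58. Between the log2 ratio and the number of snoRNA genes in the span, r was −0.48 and rho −0.44. These are descriptions across genes of the same 2 libraries, which are not independent replicates. With the exonic length of the gene, r was 0.07 and rho 0.22.

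By kind of snoRNA, the 10 hosts of box C/D snoRNAs alone were all below 0, with log2 ratios from −0.49 to −0.05 and a median of −0.17. Among the 10 hosts of box H/ACA snoRNAs, 7 were below 0, from −0.79 to 0.21, with a median of −0.08. The 3 hosts of scaRNAs (SNHG10, SNHG20 and SNHG21) lay between −0.12 and 0.11, and none of their intervals excluded no difference. The kinds also differed in level, with a median of 91.5 CPM for C/D hosts, 17.4 CPM for H/ACA hosts and 11.6 CPM for scaRNA hosts, and the part of level in the contrast was not tested.

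Hosts with and without the pyrimidine run at the start overlapped in ratio. With a run within 10 bases, 11 of 14 hosts were below 0 and the median log2 ratio was −0.12, and without one 6 of 8 were below 0 and the median was −0.10. Within 1 base, the 7 hosts with a run had a median of −0.20, from −0.35 to 0.04, and the 15 without had one of −0.11, from −0.79 to 0.21. Of the 5 lowest hosts, whose starts are printed above, SNHG17 has a run within 10 bases and SNHG12 one within 1 base. SNHG1, EPB41L4A-AS1 and GAS5 have none in either window of the RefSeq start. That start lies 163 bases from the deposited one for GAS5 and 1110 bases for SNHG12. The sorting thus holds for the RefSeq starts only and does not settle which hosts begin with a TOP element in these cells.

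The snoRNAs themselves can hardly be read from these libraries, since mature snoRNAs lack poly(A) tails. Of the 146 within host spans, 53 had at least 1 count, and their sum was 337 control counts and 355 knockdown counts, a ratio of 0.993 (0.853 to 1.16). The highest count was 58. SNORD80 in GAS5 had 32 and 58 counts, a log2 ratio of 0.77 (0.13 to 1.44), on the other side of 0 from its host. SNORD31 in SNHG1 had 39 and 30 counts, a log2 ratio of −0.46 (−1.20 to 0.26). SNORA73A in SNHG3 had 34 and 31 counts. These 3 were the snoRNAs in host spans with at least 1 CPM, and were singled out after their values were seen.

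NEAT1 and MALAT1 were on the other side. NEAT1, on chromosome 11 from 65422798 to 65445540, had 7777 control counts and 10830 knockdown counts (TPM 38.5 and 51.4), which gave a ratio of 1.31 (1.28 to 1.35). Of all genes with at least 1 CPM, 94.3% had a lower ratio. MALAT1, 52.2 kb away on the same strand from 65497738 to 65506516, had 6875 and 8654 counts (TPM 88.1 and 106), which gave a ratio of 1.19 (1.15 to 1.23). NEAT1 had the larger difference. TPM was higher for MALAT1 in each library, but it divides by listed lengths of 8779 bases for MALAT1 and 22743 for NEAT1. Which part of each length the reads of this poly(A)-selected RNA cover is not known. The order of the pair per length is thus uncertain, and each ratio describes the captured RNA only. NEAT1 alone passed 1.2-fold, where 11.7% of all genes were at least 1.2-fold higher.

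Genes on the other strand stood beside both. TALAM1, the antisense transcript of MALAT1, had 6472 and 8164 counts, 0.941 and 0.943 times those of MALAT1, and the same log2 ratio of 0.25 (0.20 to 0.30). The 2 genes share 7205 bases, and as no label states whether counting used strand, the values of the pair cannot be told apart. LOC107984338, which shares 583 bases with NEAT1 on the other strand, stood at a log2 ratio of 0.24 (0.11 to 0.37) on 894 and 1120 counts.

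Genes for paraspeckle proteins lay near 0. The 24 listed had a median log2 ratio of 0.03, with 14 above 0 and 10 below. Only FAM98A was at least 1.2-fold higher, where 11.7% of all genes were (1265 and 1749 counts, 0.38, interval 0.28 to 0.49). At least 1.2-fold lower were 0, where 12.9% of all genes were. SFPQ, a core paraspeckle protein, stood at 0.18 (0.14 to 0.23), its partner NONO at −0.03 (−0.06 to 0.00) and their paralog PSPC1 at −0.22 (−0.30 to −0.14). The 21 speckle proteins and MALAT1 3′ end factors had a median of 0.01. RNPS1, a splicing activator, was their highest at 0.40 (0.33 to 0.47), followed by the RNase P subunit POP1 at 0.33 (0.22 to 0.45), and ELAC2, the tRNA 3′ end nuclease, stood at −0.16 (−0.23 to −0.09).

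A list drawn up as other nuclear lncRNAs held 14 genes, although not all of them stay in the nucleus. Of these 14, 10 had at least 1 CPM, with a median of 0.12 and 8 above 0. JPX, a regulator of X inactivation, had 187 and 307 counts and stood at 0.63 (0.36 to 0.90). The scarcer FTX had 42 and 106 counts and stood at 1.25 (0.72 to 1.80). NORAD, which binds Pumilio proteins and is largely cytoplasmic, stood at 0.18 (0.14 to 0.22), and OIP5-AS1 at 0.16 (0.09 to 0.23). The interval lay above no difference for 6 of the 10, where it did for 20.3% of all genes. It did for 191 of the 1446 other lncRNA genes and for 110 of the 492 with at least 5 CPM. The interval lay below no difference for 0 of the 10, where it did for 20.9% of all genes. Median levels were 12.3 CPM for the 10 and 2.91 CPM for the 1446, and such counts depend on level. Of 6 other non-coding transcripts listed as snoRNA hosts, 3 had at least 1 CPM, with 1 above 0 and 2 below. Their spans were not searched for snoRNA genes, and TUG1 is also in the list of other nuclear lncRNAs. TUG1 had 4352 and 4874 counts and stood at 0.08 (0.02 to 0.14), the only one of the 3 whose interval excluded no difference. DANCR had 580 and 562 counts and stood at −0.13 (−0.30 to 0.04).

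Genes for proteins that bind or assemble snoRNAs lay near 0 as a list. The 20 genes had a median log2 ratio of −0.04, with 14 below 0. NOLC1, the nucleolar phosphoprotein that escorts snoRNPs, was far above the rest, at a log2 ratio of 0.92 (0.86 to 0.98) on 3637 and 7290 counts. The C/D core protein NOP56, itself a snoRNA host, stood at −0.21 (−0.27 to −0.15), fibrillarin (FBL), the methyltransferase, at −0.09 (−0.13 to −0.05) and NOP58 at −0.14 (−0.21 to −0.07). RRP9, which binds the U3 snoRNA, was the only one at least 1.2-fold lower, where 12.9% of all genes were, at −0.28 (−0.42 to −0.13). The H/ACA pseudouridine synthase DKC1 stood at 0.00 (−0.07 to 0.06), and GAR1 at 0.16 (0.02 to 0.30).

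Factors of nonsense-mediated decay lay near 0 as a list. The 26 genes had a median of 0.04, with 4 at least 1.2-fold higher (11.7% of all genes were) and 2 at least 1.2-fold lower (12.9% of all genes), counts near those shares. RNPS1, also a decay cofactor, stood at 0.40 and SMG8, a regulator of the SMG1 kinase, at 0.36 (0.25 to 0.47), while SMG9, its partner, stood at −0.36 (−0.40 to −0.31) and UPF3B at −0.29 (−0.41 to −0.18). The central helicase UPF1 had 6317 and 6045 counts and stood at −0.15 (−0.20 to −0.10). Of 16 decapping and 5′ to 3′ decay genes, with a median of 0.03, the decapping enzyme gene DCP2 had 723 and 1329 counts and stood at 0.79 (0.66 to 0.93), EDC3 stood at 0.43 (0.31 to 0.55) and LSM7 at −0.56 (−0.67 to −0.44).

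Other transcripts known as decay targets had a lower median than the host genes. Of 12 listed, 11 were below 0 and 8 at least 1.2-fold lower, where 12.9% of all genes were, with a median of −0.35. GADD45A and GADD45B, DNA damage inducible genes, stood at −0.89 (−0.96 to −0.81) and −0.67 (−0.78 to −0.55), and SESN2, a stress sensor that restrains mTOR, at −0.65 (−0.74 to −0.56). ATF4, DDIT3, ATF3 and SESN2 in this list are also known as amino acid and stress response genes, so the list does not read decay alone. TBL2 stood at 0.02 (−0.08 to 0.13) and MAP3K14 at −0.04 (−0.12 to 0.05).

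The 20 TOP mRNAs outside the ribosomal proteins had a median of −0.06, with 14 below 0. PABPC1, the cytoplasmic poly(A)-binding protein, stood apart at −0.96 (−0.97 to −0.94), EEF1A1 at −0.14 (−0.15 to −0.14) and EIF3F at 0.30 (0.24 to 0.36). Among 12 regulators of TOP mRNA translation, with a median of −0.02, the translation repressor EIF4EBP1 stood at −0.34 (−0.43 to −0.25) and LARP1, which binds the TOP element, at 0.12 (0.08 to 0.15). The nuclear exosome and its adaptors, which trim snoRNA ends and degrade nuclear transcripts, had a median of 0.03 over 20 genes, and EXOSC6 stood at −0.79 (−0.93 to −0.65), EXOSC5 at −0.39 (−0.50 to −0.28) and ZC3H18 at 0.35 (0.28 to 0.41).

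**Figure D4:**
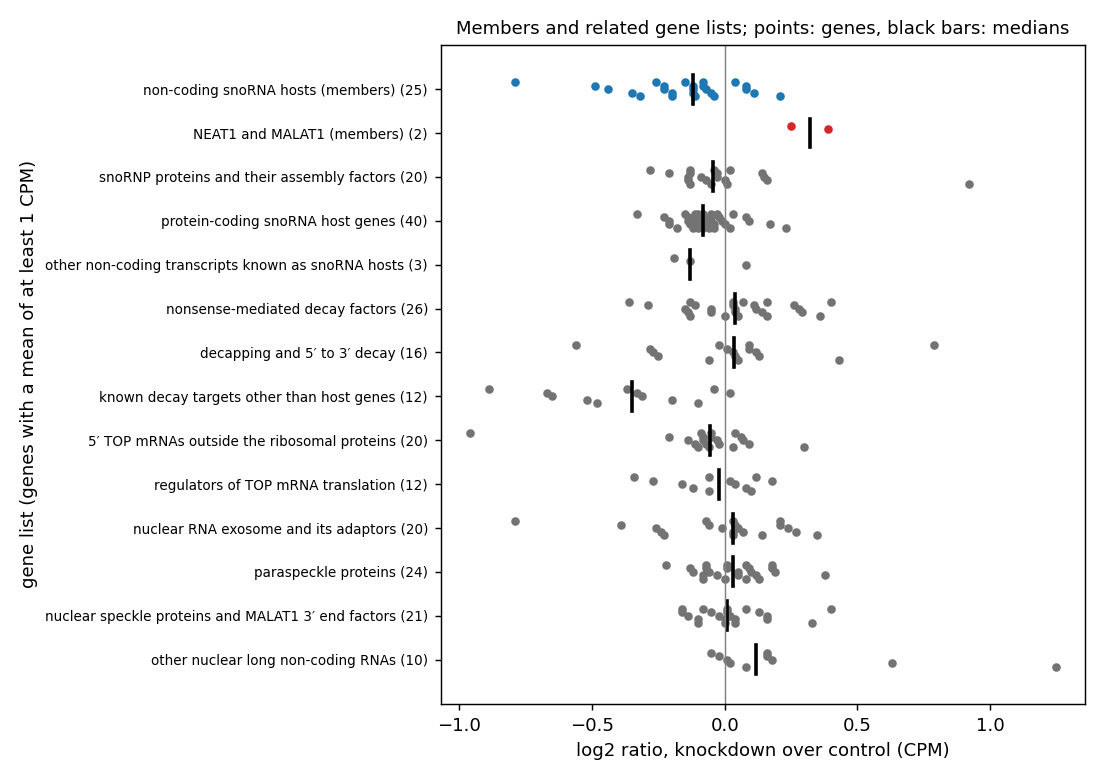
Log2 ratio of knockdown over control CPM (x axis) for the host genes, NEAT1 and MALAT1, and 12 related gene lists (y axis, number of genes with at least 1 CPM in brackets); points are genes and black bars medians. The host genes have a median of −0.12, the other decay targets one of −0.35, and most other lists lie near 0.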

How the data were processed

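Members and gene lists were chosen with earlier results of these data known. The submitters' processing notes name HISAT2, HTSeq and the build hg38, with versions and strandedness not given in the sources used here. As files, the authors deposited raw counts per gene and TPM values, and the TPM values equal counts over listed length scaled to 1000000, to within 1e-06. Columns were matched to samples by title.

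From the counts, TMM factors (edgeR 4.0.16, R 4.3.3) gave CPM. The ratio is knockdown over control CPM without pseudocount, with exact conditional Clopper-Pearson 95% intervals. The 14559 genes averaging at least 1 CPM formed the background. Having 1 library per group, the comparison carries no p-value, and genes were counted by size (1.2-fold and 1.5-fold). Every member is named, and in each list genes with the largest absolute log2 ratio and at least 5 CPM; further list genes (among them NONO, FBL, NOP58, DKC1, UPF1, TBL2, MAP3K14 and LARP1), and FTX, SNORD80, SNORD31 and SNORA73A, were added after their values were seen. Genes overlapping a member by any number of bases were found from the deposited spans, leaving out small RNA genes and without comparing lengths. The computation was tested on simulated data. Scripts ran on Python 3.11.15 with scipy 1.17.1, pandas 2.3.3, numpy 2.4.6 and, for plots, matplotlib 3.10.9. Alternatives included DESeq2 1.42.0 size factors, total counts, deposited TPM, a pseudocount, other filters, thinning, and leaving out members with overlapping genes.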

Additional observations from a re-analysis of the deposited data

How the results depend on the processing

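The median log2 ratio of the host genes stayed below 0 under the 9 other settings tried, from −0.17 with a minimum of 5 CPM to −0.09 with the deposited TPM. All 155 recomputed member values (31 members under 5 settings of scaling, unit, pseudocount or depth) stayed within the member's counting interval, and no direction changed among members whose interval excluded no difference. The settings of scaling and unit shift all genes by the same small amount, so they could hardly move a value out of its interval. The number of host genes at least 1.2-fold lower was 6 of 25. It was 3 of 17 without members that overlap a gene on the other strand (small RNA genes aside). It was 3 of 14 without members that share a span on either strand (an alternative chosen after the data were seen), and 1 of 25 when the size was raised to 1.5-fold. With DESeq2 size factors, total counts or thinning it was 5 of 25, with the deposited TPM 5 of 27, with a pseudocount 6 of 25, with a minimum of 5 CPM 6 of 20, and with no filter 8 of 29. The hosts left out for an overlapping gene included EPB41L4A-AS1, GAS5 and SNHG12, each at least 1.2-fold lower. Of all genes, 12.9% were at least 1.2-fold lower and 2.29% at least 1.5-fold lower. Depth limits the scarce hosts, whose intervals span differences as large as those of the abundant ones. With 1 library per group no replicate could be left out, and no spread between cultures is known.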

Other observations

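Several host genes face a protein-coding gene across a shared start region, and the partners lay on either side of no difference. Starts within 1000 bases on opposite strands were found for 10 members in the deposited table. SLC3A2, the heavy chain of amino acid transporters, starts 224 bases from SNHG1 and had 6012 and 4790 counts, a ratio of 0.751, beside 0.714 for SNHG1. ZNFX1, a helicase gene, starts 121 bases from ZFAS1 and had 2860 and 3710 counts, a ratio of 1.22, beside 0.853 for ZFAS1. ZBTB37 starts 800 bases from GAS5 and had a ratio of 1.13 on 310 and 372 counts, with a log2 interval from −0.04 to 0.40, beside 0.803 for GAS5. ZBTB37 shares 801 bases with GAS5 on the other strand, and whether counting used strand was not given. The intervals of ZFAS1 and ZNFX1 lie on opposite sides of no difference. RPS2, a ribosomal protein gene that starts 170 bases from SNHG9, had a ratio of 0.906, and GLRX5, 178 bases from SNHG10, one of 0.894. These pairs were found after the data were seen.

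UBE3A, which lies on the strand opposite to SNHG14 and shares 85735 bases of its span, stood at a log2 ratio of 0.63 (0.55 to 0.71) on 1891 and 3101 counts, while SNHG14 was at 0 in both libraries.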
